A study of Rattus norvegicus with 6 samples.

Results

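The genes described here encode peptides that control feeding and wakefulness and the receptors through which some of them act. The set has 10 genes, taken by name from 15168 genes with a probe on the array: the peptide genes Hcrt, Pmch, Agrp, Cartpt and Gal and the receptor genes Lepr, Mc4r, Npy1r, Npy2r and Npy5r. All 10 were represented, by 14 of 30367 distinct probes, and Gal, Lepr, Npy2r and Npy5r had 2 probes each. Probes were assigned through their transcript accession, and every probe was kept whatever its brightness. Of the 10 genes, 8 were well above background on all 6 arrays and could be tested, while Lepr and Npy2r were well above background on none.

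Brain RNA came from 6 male rats of Wistar background aged 15 weeks, all sedentary. Of these, 3 carried the SPORTS genotype, that of a hyperactive mutant line, and 3 were wild type, and each rat gave 1 single-colour array. The labels name the tissue only as brain, so whether every sample held the same share of hypothalamus is not known. In such bulk RNA, fewer cells of a type and less RNA per cell cannot be told apart. The array of SPORTS replicate 1 stood apart from the other 5 on cerebellar and choroid plexus markers, and differences are also given without it.

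Much of the control of feeding runs through the hypothalamus. In its arcuate nucleus, neurons making agouti-related peptide (Agrp) and neuropeptide Y promote eating, while neurons making the pro-opiomelanocortin peptides and the CART peptide (Cartpt) restrain it. Leptin from fat acts on these neurons through its receptor (Lepr), and agouti-related peptide blocks the melanocortin receptor encoded by Mc4r. Orexin (Hcrt) and melanin-concentrating hormone (Pmch) are made by separate neurons of the lateral hypothalamus, and orexin keeps animals awake. Galanin (Gal) is a more widespread inhibitory peptide, and Npy1r, Npy2r and Npy5r encode receptors for neuropeptide Y.

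The promoters of 4 tested genes are shown to place the peptide genes Hcrt and Gal beside the receptor genes Npy1r and Npy5r, which are neighbours on opposite strands of chromosome 16. Each sequence runs 5′ to 3′ on the strand of its gene, from 250 bases before to 50 bases after the start of transcription, and comes from RefSeq, build GRCr8. Capitals mark matches, searched on both strands, to 6 motifs. The TATA box was searched as TATAAA and the CCAAT box by the letters of its name. The GC box was searched as GGGCGG and the E-box as CACGTG. The cAMP response element was searched as TGACGTCA and the STAT-type site as TTCNNNGAA. No match in these sequences overlapped another.

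Hcrt (chr10:86191475-86191774, minus strand): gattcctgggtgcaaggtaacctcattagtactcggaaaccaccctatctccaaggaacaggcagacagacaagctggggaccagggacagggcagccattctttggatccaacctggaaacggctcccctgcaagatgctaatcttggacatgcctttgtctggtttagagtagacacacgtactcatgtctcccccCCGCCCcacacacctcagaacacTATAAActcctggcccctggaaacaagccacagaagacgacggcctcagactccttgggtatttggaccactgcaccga
Gal (chr1:210084523-210084822, minus strand): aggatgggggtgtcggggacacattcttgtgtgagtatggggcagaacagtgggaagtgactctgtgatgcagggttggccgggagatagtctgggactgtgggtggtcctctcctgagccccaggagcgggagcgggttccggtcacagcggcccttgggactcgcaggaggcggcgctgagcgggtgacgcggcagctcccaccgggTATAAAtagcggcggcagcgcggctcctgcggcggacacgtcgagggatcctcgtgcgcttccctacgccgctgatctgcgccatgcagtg
Npy1r (chr16:27813338-27813637, minus strand): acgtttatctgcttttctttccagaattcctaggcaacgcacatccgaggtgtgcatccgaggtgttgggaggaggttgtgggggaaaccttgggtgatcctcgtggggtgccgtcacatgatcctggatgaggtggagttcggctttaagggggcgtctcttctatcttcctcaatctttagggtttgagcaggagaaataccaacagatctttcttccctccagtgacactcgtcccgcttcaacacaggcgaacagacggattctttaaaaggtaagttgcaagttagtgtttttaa
Npy5r (chr16:27821805-27822104, plus strand): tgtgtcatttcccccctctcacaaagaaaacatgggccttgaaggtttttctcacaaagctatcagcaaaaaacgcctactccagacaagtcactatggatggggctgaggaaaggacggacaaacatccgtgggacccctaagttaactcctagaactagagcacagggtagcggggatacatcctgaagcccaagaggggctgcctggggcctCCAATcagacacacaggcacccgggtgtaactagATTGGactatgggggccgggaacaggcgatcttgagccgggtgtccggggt

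The Hcrt and Gal promoters held a TATA box, at positions -29 and -41 from the start site, and 14.2% of 33469 promoters of the same length held that motif. Hcrt also held a GC box, as did 33.1% of promoters. Npy5r held 2 CCAAT boxes, a motif present in 37.5%, at positions -35 and -1. The second, on the opposite strand, ran across the start site. In the Npy1r window none of the 6 motifs was found, which says only that these letters are not there. E-boxes, cAMP response elements and STAT-type sites were in none of the 4 sequences and in 6.42%, 1.83% and 8.87% of all promoters.

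The comparison of SPORTS with wild type asks whether sedentary SPORTS rats differ from wild type in transcripts of the feeding and arousal system. None of the 8 tested genes passed limma's moderated test (adjusted p under 0.05, adjusted over all 20659 tested probes), with 0 higher and 0 lower. Over all 11033 tested genes 24.3% passed, 12.9% higher and 11.4% lower in SPORTS. At an unadjusted p under 0.05 there was 1 gene of the 8, Npy5r, against 39.3% of all tested genes. The median difference of the 8 genes, SPORTS minus wild type, was -0.23 on the log2 scale against 0.01 over all tested genes. The peptide genes of the set differed widely between rats of 1 group, so that their intervals were broad. The tested neuropeptide Y receptor genes varied less. Values below are normalised log2 signals, in which 0 is the 75th percentile of an array, and levels are compared between arrays for 1 probe and never between probes.

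**Figure D1:**
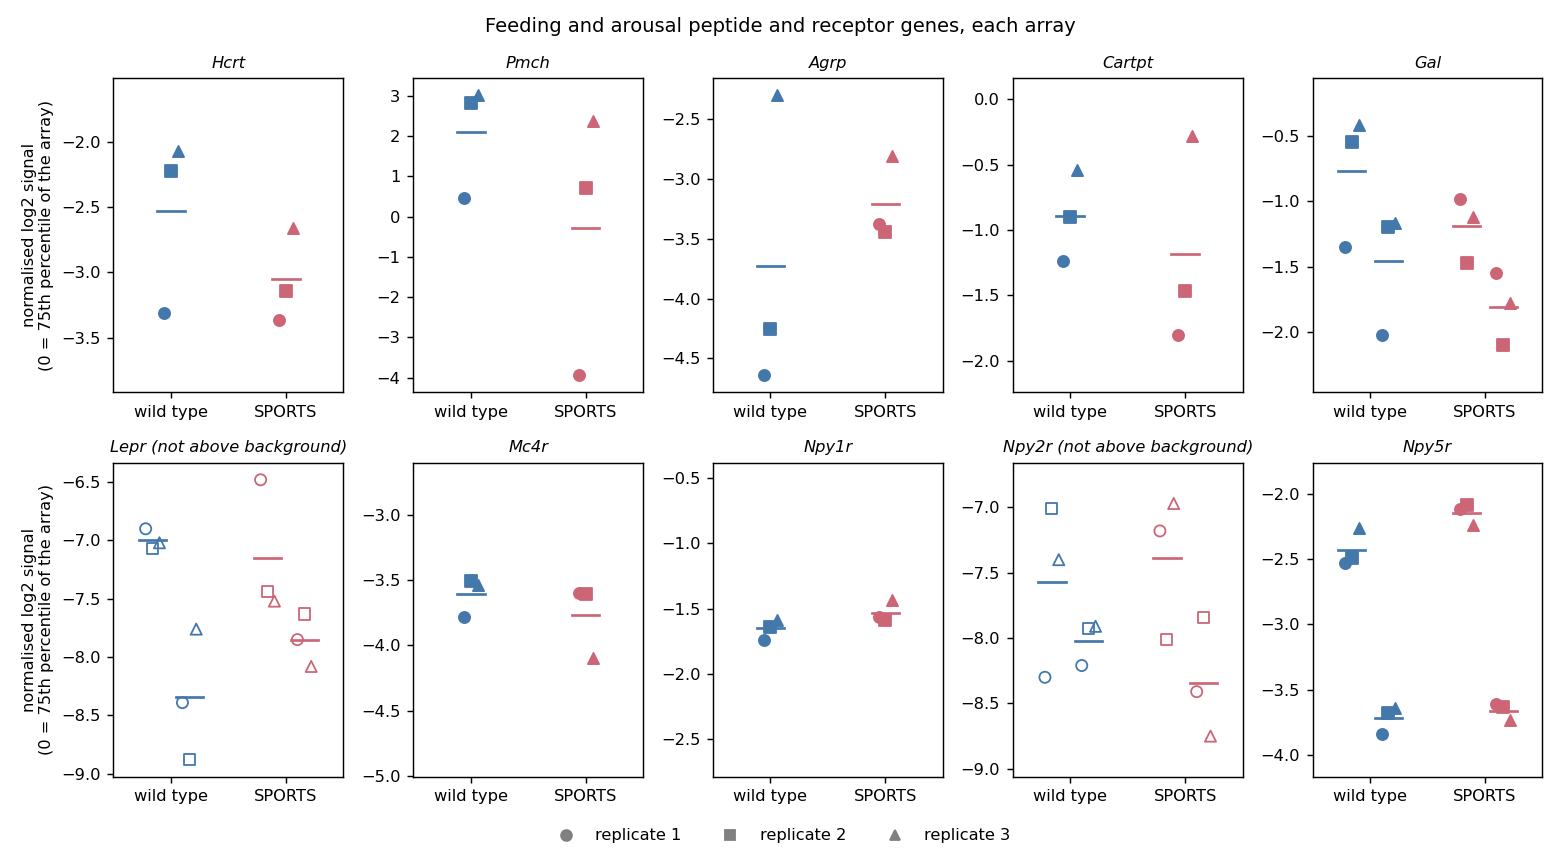
Normalised log2 signal of each array (0 is the 75th percentile of the array) for the 10 genes, with 3 wild type arrays in blue, 3 SPORTS arrays in red, marker shapes for replicates and bars for group means; each panel has its own axis, 2 columns of points per group are 2 probes, and open symbols are probes not well above background. Pmch runs from -3.94 to 3.01, while all 6 values of Npy1r lie between -1.74 and -1.43.

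Pmch, the gene of melanin-concentrating hormone, had the widest range of the set. Its signal was 0.45, 2.82 and 3.01 in wild type replicates 1 to 3 and -3.94, 0.70 and 2.37 in SPORTS replicates 1 to 3. SPORTS replicate 1 lay far below the other 5 arrays, and the remaining values of both groups overlapped. The highest array exceeded the lowest 124-fold, from 103 to 12800 units of processed signal, and all 10 spots of the probe were well above background on every array. On a single array the spots agreed, with an SD of 0.02 to 0.11 on the log2 scale. The mean was 2.09 ± 1.43 (SD, n = 3) in wild type and -0.29 ± 3.27 (SD, n = 3) in SPORTS. The difference was -2.38 ± 1.71 (SE), with a 95% interval from -6.58 to 1.82 (limma adjusted p = 0.384), and -0.55 without SPORTS replicate 1.

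Hcrt, which encodes the precursor of the orexins, gave -3.31, -2.22 and -2.07 in wild type and -3.36, -3.14 and -2.66 in SPORTS. Wild type replicate 1 was nearly as low as the lowest SPORTS array, and the other pair of wild type arrays lay above all SPORTS arrays. The difference was -0.52 ± 0.37 (SE), with an interval from -1.43 to 0.39 (limma adjusted p = 0.378). Without wild type replicate 1 it was -0.91, which did not pass either (adjusted p = 0.0565), and without SPORTS replicate 1 it was -0.37. It was -0.29 without wild type replicate 3 and -0.98 in the slide-row fits.

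Agrp, the gene of agouti-related peptide, gave -4.64, -4.25 and -2.30 in wild type and -3.38, -3.44 and -2.81 in SPORTS. Wild type replicate 3 was the highest of the 6 arrays and the other wild type arrays were the lowest, so the SPORTS values lay inside the wild type range. The difference was 0.52 ± 0.62 (SE; interval -1.01 to 2.06, limma adjusted p = 0.608). Its direction depended on wild type replicate 3: without that array it was 1.24 (adjusted p = 0.0324), and in a fit blocked on slide row, where it is the only wild type array set against SPORTS arrays, it was -0.91 (adjusted p = 0.146). Without wild type replicate 1 it was 0.07. Over the 16 alternatives run for Agrp the adjusted p ran from 0.0324 to 0.953.

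Cartpt, which encodes the CART peptide precursor, gave -1.24, -0.90 and -0.54 in wild type and -1.80, -1.47 and -0.28 in SPORTS. SPORTS held both the lowest values and the highest one. The difference was -0.29 ± 0.42 (SE; interval -1.33 to 0.74, limma adjusted p = 0.675), and 0.02 without SPORTS replicate 1.

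Gal, the galanin gene, gave -1.35, -0.55 and -0.42 in wild type and -0.98, -1.47 and -1.12 in SPORTS with its brighter probe. Wild type replicate 1 again lay among the SPORTS arrays. The second probe, at -2.02, -1.20 and -1.17 in wild type and -1.55, -2.10 and -1.78 in SPORTS, showed the same low wild type array. The differences were -0.41 ± 0.27 (SE; interval -1.08 to 0.25, limma adjusted p = 0.34) and -0.35 ± 0.27 (interval -1.01 to 0.31, adjusted p = 0.416). Without wild type replicate 1 the brighter probe passed, at -0.70 (adjusted p = 0.0474; 0.0474 to 0.61 over the alternatives), and the second probe did not (lowest adjusted p over the alternatives 0.0718). The brighter probe's difference was -0.24 without wild type replicate 3, -0.27 without SPORTS replicate 2 and -0.77 in the slide-row fits.

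Among the receptor genes, Npy5r came nearest to a call. Its brighter probe gave -2.53, -2.49 and -2.26 in wild type and -2.12, -2.09 and -2.24 in SPORTS, where every array was above every wild type array. The gap between the groups was small, and it was the 1 member whose groups did not overlap. Among all tested genes the SPORTS arrays were all higher for 24.8% and all lower for 22.3%. The difference was 0.27 ± 0.09 (SE; interval 0.06 to 0.49), a 1.21-fold one, and did not pass (limma adjusted p = 0.0757). It passed with a trended and robust variance (adjusted p = 0.0381) and without wild type replicate 3, at 0.36 (adjusted p = 0.0246), but the difference was 0.10 when blocked on slide row and in slide row 2 alone (adjusted p = 0.461 and 0.491). The second Npy5r probe gave -3.84, -3.68 and -3.64 in wild type and -3.61, -3.63 and -3.73 in SPORTS. These groups overlapped, with a difference of 0.06 ± 0.07 (interval -0.10 to 0.23, adjusted p = 0.565), so the 2 probes did not give the same picture.

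Npy1r, whose receptor carries much of the feeding response to neuropeptide Y, gave -1.74, -1.64 and -1.59 in wild type and -1.56, -1.59 and -1.43 in SPORTS. The groups met at -1.59 to 2 decimals. Its difference of 0.13 ± 0.06 (SE) had a narrow interval, from -0.03 to 0.28 (limma adjusted p = 0.216), so that a larger rise than 0.28 or any fall beyond 0.03 lay outside the interval.

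Mc4r, the melanocortin receptor gene whose loss causes obesity, gave -3.78, -3.51 and -3.54 in wild type and -3.60, -3.61 and -4.10 in SPORTS. SPORTS replicate 3 was the lowest array and the rest overlapped. The difference was -0.16 ± 0.16 (SE; interval -0.55 to 0.22, limma adjusted p = 0.521), and 0.00 without SPORTS replicate 3. On SPORTS replicates 1 and 2 the 2 Mc4r spots disagreed more than elsewhere, with SDs of 0.72 and 0.53.

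**Figure D2:**
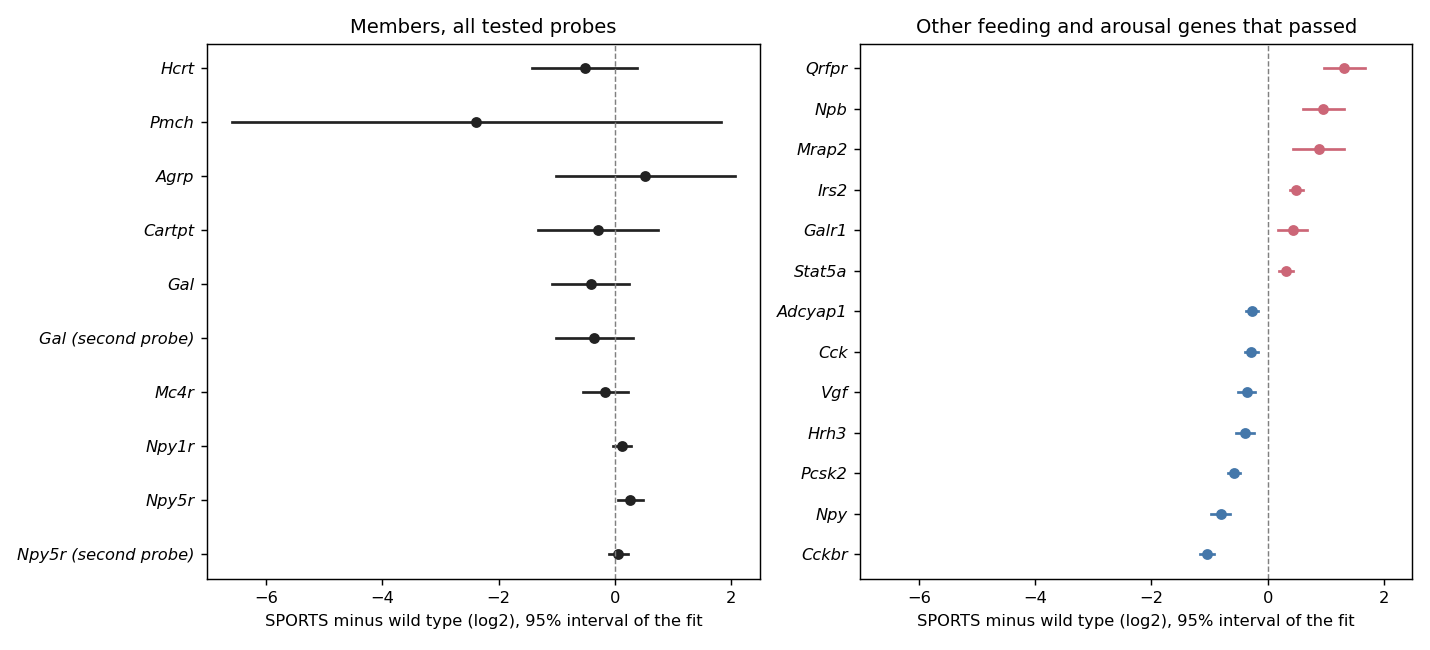
Differences SPORTS minus wild type (log2) with 95% intervals of the limma fit, for the 10 tested probes of the feeding and arousal genes (left) and for other genes of the system that passed at an adjusted p under 0.05 (right, red higher and blue lower in SPORTS). The Pmch interval runs from -6.58 to 1.82, and the largest differences on the right are those of Qrfpr at 1.32 and Cckbr at -1.04.

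Lepr, the leptin receptor gene, and Npy2r, which encodes a neuropeptide Y receptor found largely on nerve endings, could not be measured in this tissue. No spot of their 4 probes was well above background on any array. The Lepr probes read between -8.88 and -7.63 and between -7.52 and -6.48 over the 6 arrays, and the Npy2r probes between -8.75 and -7.84 and between -8.30 and -6.97. The dimmest probe still well above background read between -6.72 and -5.79, depending on the array, and each of these readings was under that of its own array. They therefore show only that the signals lay under these limits, and no fold is given.

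Within the set, the spread between rats of 1 group separated the peptide genes from the receptor genes. The SD within groups, pooled over both, was 2.52 for Pmch, 0.92 for Agrp, 0.62 for Cartpt, 0.54 for Hcrt and 0.40 for Gal, on the log2 scale. Over all 11033 tested genes the median was 0.06 and the 99th percentile 0.60. Pmch ranked 2nd of all tested genes, behind only Sdcbp, a scaffold protein gene with a single low array. All 5 peptide genes had a larger SD than 97% of tested genes. Mc4r stood at 0.23, Npy5r at 0.12 and Npy1r at 0.08, larger than 91.8%, 77.5% and 62.9% of tested genes. Outside the set, ligand and receptor genes were not separated in this way. There the ligand gene Cck stood at 0.05. The vasopressin gene Avp and the calcitonin receptor gene Calcr, named after their values were seen, stood at 0.53 and 0.62. These are descriptions of 6 arrays, and no test was made of the difference between peptide and receptor genes.

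**Figure D3:**
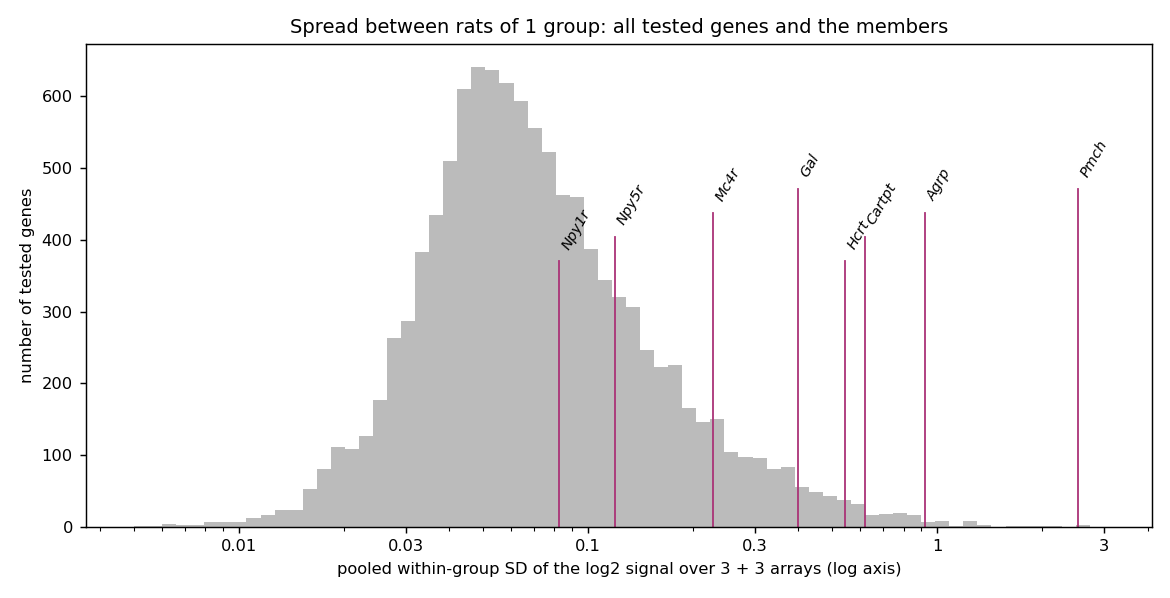
Histogram of the pooled within-group SD of the log2 signal (x axis, log scale) over 11033 tested genes, with the 8 tested feeding and arousal genes as purple lines whose heights carry no meaning. Pmch at 2.52 lies at the far right, and Npy1r at 0.08 lies near the bulk of genes, whose median is 0.06.

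In wild type every peptide gene of the set was lowest in replicate 1 and highest in replicate 3. The SPORTS arrays did not order the peptide genes in 1 way. SPORTS replicate 1 was the lowest of 6 for Hcrt, Pmch and Cartpt, and wild type replicate 3 the highest for Hcrt, Pmch, Agrp and Gal. Wild type replicate 1 was the lowest wild type array for all 8 tested genes. SPORTS replicate 1 also stood apart on markers of other regions. It was the highest array for 8 of 11 tested cerebellar markers, whose mean was -0.84 there and between -1.82 and -1.69 on the other arrays, and of the 12 markers with a probe only Gabra6 was not tested. It was the lowest for 10 of 11 choroid plexus and ependyma markers, with a mean of -2.36 against -1.56 to -1.30, and all 11 with a probe were tested. Pcp2, a Purkinje cell gene, read -0.51 on that array and -3.75 to -3.54 on the rest. Ttr, the transthyretin gene of choroid plexus, named after its values were seen, read 6.06 there and 6.98 to 7.16 on the rest. Their part in the low Pmch, Hcrt and Cartpt signals of that array was not tested. Without SPORTS replicate 1 the difference was 0.61 for Agrp, -0.52 and -0.48 for the 2 Gal probes, -0.25 for Mc4r, 0.14 for Npy1r and 0.26 and 0.04 for the 2 Npy5r probes, and none of these passed.

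Several markers of the hypothalamus also differed between the groups, in both directions, where 11.4% of all tested genes fell and 12.9% rose. Of 9 tested hypothalamic regional genes 6 fell and 2 rose, with a median of -0.98, and their mean signal ran from -3.02 to -2.64 in wild type but from -4.64 to -3.90 in the SPORTS arrays, where the gap rests in part on readings not above background. Among the 6 of these genes well above background on all 6 arrays, 3 fell and 2 rose, with a median of -0.41. Several of these genes are also active in other forebrain regions. Of the 18 with a probe, those not tested included Sim1, Otp, Bsx, Rax, Nr5a1, Hmx2, Hmx3 and Fezf1. Hmx3 and Fezf1 were well above background on wild type replicates 2 and 3, and Hmx3 also on SPORTS replicate 3, but not on all arrays of either group. Of those that fell, Lhx8, Isl1 and Six3 had no spot well above background on SPORTS replicates 1 and 2. Their readings there are not measured levels, and no size is given. Avp, the vasopressin gene, was well above background on every array and differed by -4.17. The genes that rose were Lhx9 and Foxb1, transcription factor genes named after their values were seen, by 1.02 and 1.04. Each rise came from a probe with 1 spot, and the other probe of each gene was well above background on no array. Neither gene passed in the slide-row fits, which set 1 wild type array against SPORTS. Avp did not overlap between the groups, reading 0.60 to 2.09 in wild type but -2.86 to -2.67 in SPORTS, unlike the 5 peptide genes above. The 13 tested striatal markers all fell (median -1.83; mean signal 0.68 to 0.85 in wild type, -1.08 to -0.84 in the SPORTS arrays), and Gpr6 was not tested. The part of a different share of hypothalamus or striatum in the values of Hcrt, Pmch, Agrp and Cartpt was not tested.

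Other marker lists moved less or in other directions, beside 12.9% of all tested genes that rose and 11.4% that fell. Of 10 tested genes of meninges and fibroblasts 8 rose and 1 fell (median 0.67). Counted by each gene's brightest tested probe, 3 of 7 rose of the astrocyte list and 2 of 8 of the oligodendrocyte list. Of the endothelial list 1 of 8 rose and of the thalamic list 1 of 6, with none lower in these lists. Dimmer probes, named after their values were seen, differed from this. Those of the astrocyte genes Slc1a2 and Slc1a3 passed as lower (-0.16 and -0.19), and that of the oligodendrocyte gene Mbp passed as higher (0.23). Of the cortical and hippocampal list 2 of 12 fell, of the microglial list 1 of 8 and of the cerebellar list 1 of 11, with none higher. Of 9 pan-neuronal genes 1 rose and 2 fell, and 0 of 11 choroid plexus and ependyma markers passed. The part of these cell types in the members' values was not tested.

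**Figure D4:**
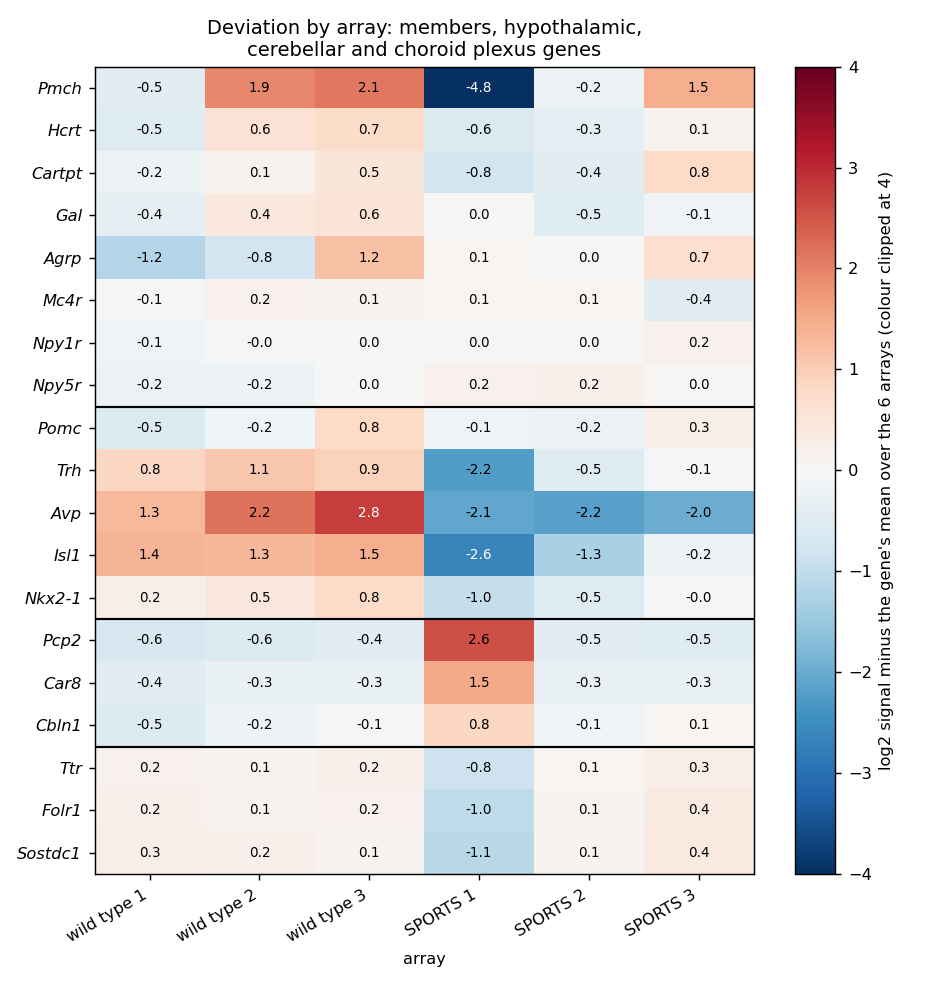
Heat map of log2 signal minus the gene's mean over the 6 arrays (columns), with the colour scale clipped at 4; horizontal lines separate the 8 tested feeding and arousal genes, other hypothalamic genes, cerebellar genes and choroid plexus genes. SPORTS replicate 1 is low for Pmch (-3.94 before centring) and high for Pcp2 (-0.51 before centring), and Avp separates the groups.

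The tested genes with the pattern most like that of a member, by root mean square difference of centred log2 values over the 6 arrays, were sought for the 3 members with the widest range. For Pmch they were Gpr151, a receptor gene of the habenula (1.36), the homeobox gene Isl1 and the thyrotropin-releasing hormone gene Trh (both 1.47), none of them close beside a Pmch range of 6.95. On SPORTS replicate 1 Gpr151 and Isl1 read -8.35 and -7.96, under that array's lowest signal well above background (-6.28). Their likeness values therefore rest on readings that are not measured levels. For Agrp they were Igfbp5, which encodes a binding protein of insulin-like growth factors (0.42), the pro-opiomelanocortin gene Pomc (0.45) and Niban1 (0.46). For Cartpt they were Ccdc33 (0.22), the sodium channel gene Scn9a (0.25) and the retinoic acid binding protein gene Crabp1 (0.26). Trh gave -2.66, -2.39 and -2.55 in wild type and -5.73, -3.98 and -3.57 in SPORTS, and at -1.89 ± 0.55 (SE) it did not pass (limma adjusted p = 0.0632). It passed with normexp background correction and when SPORTS replicate 1 was left out, and its adjusted p ranged from 0.0123 to 0.315.

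Other ligands of the feeding and arousal system differed in part. Of 16 tested ligand genes 4 fell and 1 rose, with a median difference of -0.17. Among all tested genes 11.4% fell and 12.9% rose. Npy, which encodes neuropeptide Y, was at 3.43, 3.37 and 3.36 in wild type and 2.51, 2.52 and 2.72 in SPORTS. It fell by 0.80 ± 0.07 (SE; limma adjusted p = 0.00134), and its second probe fell as well. Agrp had a difference of 0.52, which did not pass, and the brain region in which Npy fell was not tested. The receptor genes Npy1r and Npy5r, described above, had differences of 0.13 and 0.27, neither of which passed. Cck, the cholecystokinin gene, fell by 0.28 ± 0.05, the growth factor-induced peptide gene Vgf by 0.36 ± 0.06 and the pituitary adenylate cyclase-activating peptide gene Adcyap1 by 0.27 ± 0.04. Npb, the neuropeptide B gene, rose by 0.96 ± 0.14. Blocking on slide row, which leaves 1 wild type array to set against SPORTS, ended the calls of Cck, Vgf and Npb (adjusted p = 0.0651, 0.0888 and 0.0764), while their differences stayed at -0.31, -0.35 and 0.94. Over the alternatives the adjusted p ran from 0.000859 to 0.0651 for Cck, from 0.000788 to 0.113 for Vgf, from 0.00161 to 0.0764 for Npb and from 0.00545 to 0.0709 for Adcyap1.

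Pomc, the partner of Agrp in the arcuate nucleus, gave -1.88, -1.52 and -0.54 in wild type and -1.48, -1.58 and -1.09 in SPORTS. Like Agrp, it was highest in wild type replicate 3 and lowest in wild type replicate 1. The difference was -0.07 ± 0.36 (SE; interval -0.95 to 0.81, limma adjusted p = 0.912), and over the alternatives it ran from -0.85 to 0.32. Pomc is also made in the pituitary, of whose 10 markers with a probe only Pomc and Lhb were tested. Gh1, Prl, Cga, Fshb, Tshb, Pou1f1, Gnrhr and Ghrhr were not well above background on all arrays of either group. Cga was so on wild type replicates 2 and 3 and SPORTS replicate 3, at -3.51, -0.74 and -3.13. Tshb was so on replicate 3 of each group, at -4.31 and -4.25, and 1 Pou1f1 probe on wild type replicates 1 and 2.

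The receptors of the 2 lateral hypothalamic peptides did not pass. Hcrtr1 and Hcrtr2, the orexin receptor genes, had differences of -0.21 ± 0.10 (SE; interval -0.46 to 0.05) and 0.38 ± 0.18 (interval -0.06 to 0.82), with limma adjusted p = 0.218 and 0.199. Mchr1, the receptor gene of melanin-concentrating hormone, had 0.24 ± 0.10 (interval -0.01 to 0.48, adjusted p = 0.153). Single alternatives gave calls for each: Hcrtr1 without SPORTS replicate 3 (adjusted p = 0.0434; 0.0434 to 0.71 over the alternatives), Hcrtr2 with quantile normalisation (0.0223; 0.0223 to 0.633) and Mchr1 without wild type replicate 2 (0.0465; 0.0465 to 0.336). Mc3r, the other brain melanocortin receptor gene, was well above background on 1 array of each group and was not tested.

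Of 16 tested receptor genes 2 rose and 2 fell, with a median difference of 0.17. That share was near the 24.3% of all tested genes that passed. Qrfpr, which encodes the receptor of an RFamide peptide that stimulates feeding, gave -4.65, -4.07 and -4.44 in wild type and -3.04, -3.06 and -3.10 in SPORTS. The groups stood well apart, and the rise was 1.32 ± 0.14 (SE), 2.50-fold (limma adjusted p = 0.00288). Galr1, a galanin receptor gene, rose by 0.43 ± 0.10 (adjusted p = 0.0315), but lost its call in 8 alternatives, among them the fit blocked on slide row and leaving out any array but wild type replicate 3 (range of adjusted p 0.0118 to 0.237). Cckbr, the cholecystokinin receptor gene abundant in cortex and striatum, read 0.40 to 0.48 in wild type but -0.68 to -0.55 in SPORTS. It fell by 1.04 ± 0.05, a 2.06-fold difference (adjusted p = 0.00019), as did its second probe. Hrh3, the inhibitory histamine receptor gene, fell by 0.39 ± 0.06 (adjusted p = 0.00968). Qrfpr, Cckbr and Hrh3 kept their calls in every alternative in which they were fitted.

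Of 17 tested genes of leptin and melanocortin signalling and of peptide processing 3 rose and 1 fell, with a median difference of -0.03. This share was likewise near the 24.3% of all tested genes that passed. Irs2, an adaptor of insulin receptor signalling, rose by 0.49 ± 0.04 (SE; limma adjusted p = 0.00159), and Pcsk2, which encodes a protease that cuts peptide precursors, fell by 0.58 ± 0.04 (adjusted p = 0.000703). Both kept their calls in every alternative in which they were fitted. Mrap2, an accessory protein gene of melanocortin receptors, rose by 0.88 ± 0.18 (adjusted p = 0.0222), but its call ended in 7 alternatives, among them leaving out wild type replicate 2 or any 1 SPORTS array (adjusted p from 0.0154 to 0.178). Stat5a, a transcription factor of cytokine receptor signalling, rose by 0.32 ± 0.05 (adjusted p = 0.0102), but lost its call when blocked on slide row (adjusted p = 0.0865; range 0.00377 to 0.115), where the difference was 0.31. Also in this list, Jak2, Stat3 and Socs3 had differences of -0.10, 0.08 and 0.12, which did not pass. Jak2, Stat3 and Socs3 are named outside the rule for named genes, after their values were seen.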

How the data were processed

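The submitters' software, Agilent Feature Extraction 10.10.1.1 per the file headers, produced the spot intensities that were deposited for 6 arrays, 1 per rat. The deposited value table holds the same intensities times 1 factor per array, and there were 0 columns of other samples. Outlier-flagged spots were left out, spots of a probe averaged on the log2 scale, and the array's 75th percentile over non-control spots (processed signal 1530 to 1628) subtracted. No spot was saturated. Each array had 20325 to 23261 of 30367 probes above background. Testing required that over 0.5 of a probe's spots passed Agilent's background flag on each array of 1 group or the other.

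Groups were compared by limma 3.58.1 (R 4.3.3, data.table version 1.17.8), two-sided, with Benjamini-Hochberg adjustment over 20659 tested probes, after a check on simulated data. A gene was represented by its brightest tested probe. The probe design (rn4) and the gene list (GRCr8) differ in build, so genes were matched by transcript accession and no probe positions are given. Slide row 1 held wild type replicates 1 and 2. All SPORTS arrays shared row 2 with wild type replicate 3, on which slide-row fits rest. The normexp alternative took spot medians.

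The members and lists were chosen with earlier results of these data known. The rule for named genes took all 10 members, every other feeding and arousal gene that passed, Npy, Pomc, Hcrtr1, Hcrtr2, Mchr1 and Mc3r, up to 3 genes of a marker list with the largest absolute difference, and the 3 genes most like each of 3 members; markers not tested, and single features said to be chosen after their values were seen, are named besides. Each array is a separate rat.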

Additional observations from a re-analysis of the deposited data

How the results depend on the processing

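The alternatives covered scaling (quantile, median shift), normexp background correction, the deposited value table, other filters on dim probes, outlier spots kept, a trended and robust variance, the slide row as a block, slide row 2 alone, the mean of a gene's probes and leaving out each array. Over the 10 tested member probes, 150 of 160 alternative values kept their direction and stayed without a call, 6 changed sign and 4 passed. The sign changed for Agrp with the slide row as a block and in slide row 2 alone (both -0.91), for the second Npy5r probe in the same fits (both -0.02), for Cartpt without SPORTS replicate 1 (0.02; -0.74 to 0.02 with 1 array left out) and for Mc4r without SPORTS replicate 3 (0.00; -0.25 to 0.00 with 1 array left out). The causes were not tested. Of the members, 1 rose with a trended and robust variance, and leaving out 1 array gave between 0 and 2 members higher and between 0 and 1 lower. The median of the members was -0.71 with the slide row as a block and in row 2 alone, and from -0.36 to -0.11 with 1 array left out. The median of the other ligands was -0.34 in both slide-row fits and from -0.27 to -0.08 with 1 array left out. In the slide-row block, 0 other ligands, 1 other receptor and 1 signalling gene were higher, and in row 2 alone 1 receptor and 1 signalling gene were higher and 2 ligands lower. Without the filter on dim probes 1 other receptor was higher, and with 1 array left out between 1 and 2 were. Of the signalling genes, 2 were lower with quantile normalisation, with a trended and robust variance and with the mean of a gene's probes, and 3 with a median shift. Over all genes the median shift moved the share of calls that were higher from 53.1% to 43.1%, and the slide-row block called 4.03% of genes higher and 4.31% lower.

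No paired analysis was made, because the labels name no pairs of rats. Signal near background limits Lepr and Npy2r. The slide-row fits set 1 wild type array against 3 SPORTS arrays, so a call lost or kept there says little about stability.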

Other observations

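Some other genes of hypothalamic neurons, chosen after their values were seen, also differed between rats of 1 group. Npvf, which encodes an RFamide peptide of the hypothalamus, was at -7.40, -3.33 and -2.37 in wild type and at -5.34, -4.92 and -3.84 in SPORTS. It was well above background on 2 wild type arrays and 1 SPORTS array and was not tested. Hdc, which encodes the enzyme that makes histamine in arousal-promoting neurons, gave -4.29, -3.23 and -2.47 in wild type and a mean of -2.91 ± 0.84 (SD, n = 3) in SPORTS, with a difference of 0.43 ± 0.59 (SE; limma adjusted p = 0.664). Prlh, the gene of prolactin-releasing hormone, was at -2.92 in wild type replicate 3 and between -5.08 and -4.45 on the other 5 arrays.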
